A study of Mus musculus with 34 samples.

Results

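The genes of cholesterol synthesis, uptake and efflux were followed in CD4+ spleen cells of 5 inbred mouse strains at T1, after stimulation, and at T0, before it. The module holds 30 genes, listed by name for their role in sterol metabolism, with earlier results of these data known. Shares of the module set against those of all genes are therefore descriptions. A gene was represented by its probe set with 1 symbol, the brightest where there were several. Such a probe set was found for 28 of the 30 genes, out of 19938 genes on the arrays, and all 28 passed the filter on low values. Acat2 and Nr1h2 had none and are named only.

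T1 cells were treated for 4 h with phorbol 12-myristate 13-acetate (PMA) at 10 ng/ml and ionomycin at 1 uM, which together bypass the T cell receptor, the first as an activator of protein kinase C and the other as a calcium carrier. T0 cells were unstimulated. Cells of both kinds came from female mice, 8 weeks old, of 5 inbred strains: 129X1/SvJ, DBA/2J, C57BL/6J, Balb/c and A/J. They were taken from spleen with magnetic CD4 beads and kept in medium with 10% fetal calf serum, a source of lipoprotein cholesterol. A/J and C57BL/6J had 4 arrays at each time and the other strains 3, which makes 17 arrays at T1 and 17 at T0. The labels call the replicates biological and do not say whether animals were pooled. The labels can be read as leaving T0 cells out of culture, in which case 4 h of culture and the stimulus cannot be told apart in any comparison of T1 with T0.

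Animal cells make cholesterol from acetyl-CoA through mevalonate, the isoprenoid diphosphates, squalene and lanosterol. The transcription factor encoded by Srebf2 switches on the enzymes when sterols in the endoplasmic reticulum are low: Scap escorts it to the Golgi for cleavage, and the Insig proteins hold it back when sterols are plentiful. The liver X receptors work the other way round, since they sense oxysterols and switch on the exporters Abca1 and Abcg1 and the ubiquitin ligase Mylip, which sends lipoprotein receptors for degradation. Activated T cells are known to raise sterol synthesis before they divide, to build membrane.

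Values are log2 intensities per probe set. A difference of T1 minus T0 is the mean of the 5 strain differences, with the standard error (SE) of a limma fit to all 34 arrays, and its p value was adjusted over the 11413 genes kept. Genes with an adjusted p under 0.05 are referred to as called. Over all kept genes the median difference was -0.07, so a value near 0 is close to the middle of the arrays. Correlations between arrays ran from 0.808 to 0.992 over the kept genes. Balb/c T1 replicate 2 stood apart, with a mean correlation of 0.948 with its own group, and the counts of called genes that change without it are given beside the results.

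Promoter sequences bear on these genes because the known sterol switches act on motifs near the start of transcription. RefSeq windows of 300 bases on build GRCm38.p6 (250 before and 50 after the start) were given for 24 of the 30 genes. The windows of 5 genes are shown here, namely, of the genes with a window, the 3 enzymes with the largest rises and the 2 genes with the largest falls. Capitals mark CCAAT boxes (CCAAT, or ATTGG on the other strand) and the core of the sterol regulatory element (CACCCCAC). 
Idi1, chr13:8885356-8885655, plus strand: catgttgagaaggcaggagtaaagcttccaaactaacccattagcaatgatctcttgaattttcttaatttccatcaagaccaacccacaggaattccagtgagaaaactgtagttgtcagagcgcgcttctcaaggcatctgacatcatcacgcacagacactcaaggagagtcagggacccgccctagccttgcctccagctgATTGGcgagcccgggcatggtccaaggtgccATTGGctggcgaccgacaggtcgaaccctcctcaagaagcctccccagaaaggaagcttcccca
Cyp51, chr5:4104648-4104947, minus strand: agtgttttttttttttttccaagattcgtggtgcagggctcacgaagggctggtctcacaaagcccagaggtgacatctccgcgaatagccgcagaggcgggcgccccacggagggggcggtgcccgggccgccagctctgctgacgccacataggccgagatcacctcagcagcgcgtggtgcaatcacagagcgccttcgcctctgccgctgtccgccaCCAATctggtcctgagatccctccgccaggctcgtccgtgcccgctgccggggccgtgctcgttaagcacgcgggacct
Hmgcs1, chr13:119690101-119690400, plus strand: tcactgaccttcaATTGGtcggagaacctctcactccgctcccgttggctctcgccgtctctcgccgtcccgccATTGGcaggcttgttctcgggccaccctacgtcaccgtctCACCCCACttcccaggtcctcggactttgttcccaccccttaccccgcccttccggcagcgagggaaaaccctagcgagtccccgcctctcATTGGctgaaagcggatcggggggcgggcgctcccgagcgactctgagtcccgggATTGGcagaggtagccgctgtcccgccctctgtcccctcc
Abca1, chr4:53159846-53160145, minus strand: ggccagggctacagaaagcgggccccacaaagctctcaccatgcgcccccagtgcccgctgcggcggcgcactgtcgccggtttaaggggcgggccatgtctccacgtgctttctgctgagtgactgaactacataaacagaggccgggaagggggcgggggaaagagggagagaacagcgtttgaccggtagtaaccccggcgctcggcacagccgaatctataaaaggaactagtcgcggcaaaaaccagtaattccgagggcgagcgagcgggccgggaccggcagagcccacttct
Mylip, chr13:45389492-45389791, plus strand: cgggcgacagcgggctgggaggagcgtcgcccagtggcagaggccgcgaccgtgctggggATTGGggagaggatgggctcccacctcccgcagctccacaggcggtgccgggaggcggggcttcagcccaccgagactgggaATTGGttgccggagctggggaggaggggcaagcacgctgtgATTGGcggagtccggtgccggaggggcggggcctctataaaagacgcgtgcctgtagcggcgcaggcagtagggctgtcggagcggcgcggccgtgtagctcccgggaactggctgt
A CCAAT box was found on either strand in the windows of 11 of the 12 genes called up that had one (91.7%) and of 7 of the 8 called down (87.5%), so by this count it did not separate the directions. The share was 41.9% among the 9130 kept genes with a window. A gene counted if any of its windows matched, and 5 of the 24 genes had several windows. Among these were Dhcr7, Srebf1 and Insig2, called down, and Scap, called up, so the 2 shares do not rest on equal numbers of windows. The GC box (GGGCGG) stood in 22 of the 24 windowed genes (91.7%), against 67.7% of the kept genes. In its exact letters, the sterol regulatory core was present in Hmgcs1, at position -136 from the start, and in Acat2, at -181. This is 8.33% of the 24 genes, against 3.92% of kept genes. Other forms of the element were not searched, so a window without these letters may still hold one. The DR4 element of liver X receptors, searched only as AGGTCA repeated exactly after a gap of 4 bases, was in none of the 24 genes. It was in none of the 9130 kept genes with a window either, so its absence was close to fixed in advance. Other forms of it were not searched, and the absence says only that these letters are not there. Both strands were searched, the motifs may overlap each other, and a match is a description of sequence and not a site of binding.

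Stimulation raised most of the synthesis enzymes and lowered the exporters. Of the 28 genes measured, 16 were called up, 10 down and 2 were not called. The arrays as a whole changed so widely that 82.3% of all kept genes were called in this comparison, 36.0% up and 46.3% down, and the count of 26 called genes is to be read against that. Called up by at least 1 log2 were 8 genes, a size that 6.23% of kept genes reached, and called down by as much were 3, a size that 9.58% reached. All 17 T1 values lay above all 17 T0 values for 6 genes (9.28% of kept genes) and below them for 4 (17.5%). Among the 17 enzymes of synthesis, 12 were called up and 3 down, with a median difference of 0.56 log2.

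**Figure D1:**
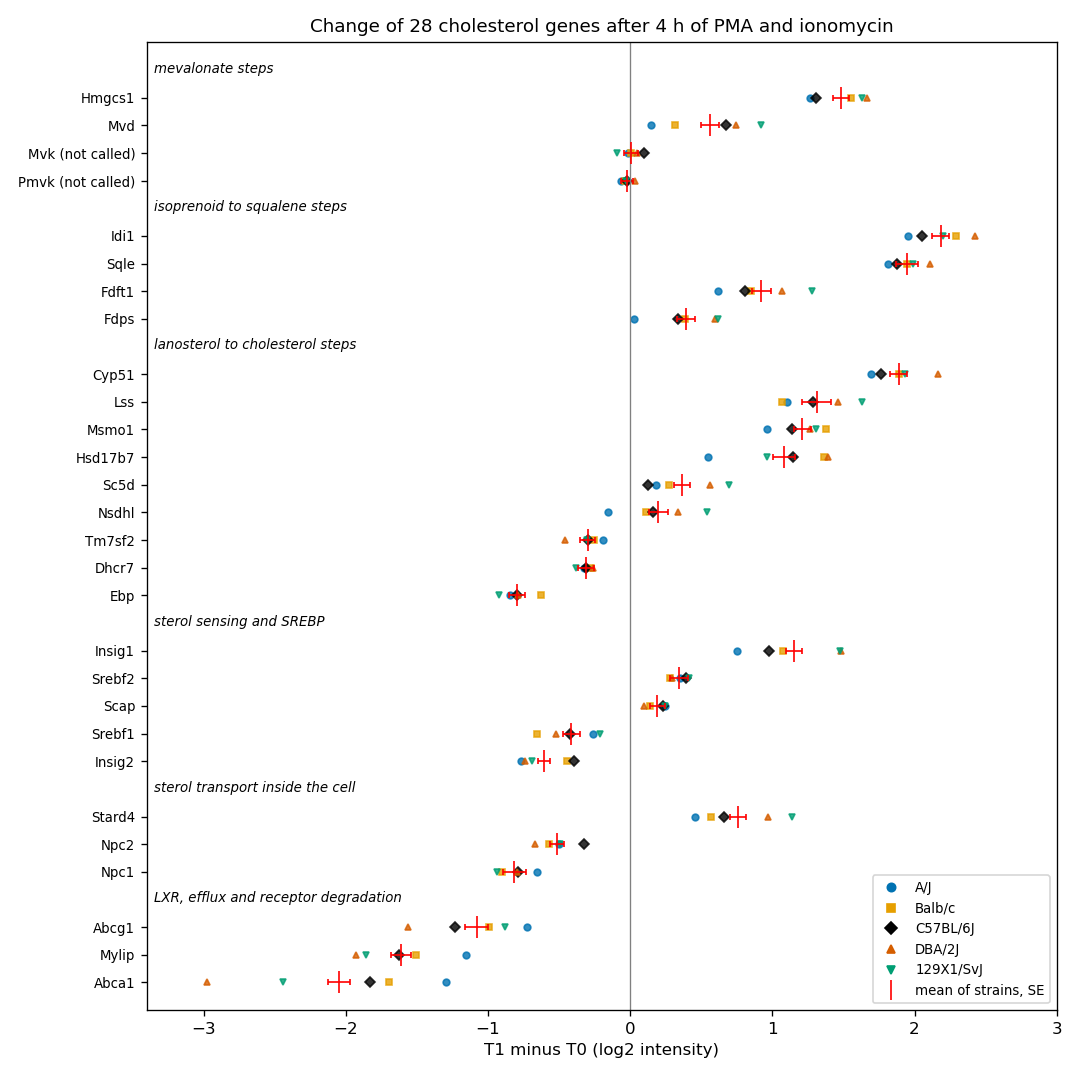
Change after stimulation of the 28 genes measured, T1 minus T0 in log2 intensity on the horizontal axis, by role. Coloured symbols are the differences of the 5 strains, and red bars are their mean with its SE; Idi1 lies farthest right at 2.18 and Abca1 farthest left at -2.05.

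Early in the pathway stands Hmgcs1 (probe set 10412466), the cytosolic synthase that makes HMG-CoA. Its log2 values ran from 9.46 to 10.87 at T1 (median 9.94) and from 8.37 to 9.14 at T0 (median 8.57), and the times did not overlap. The difference was 1.48 (SE 0.06, adjusted p = 9.7e-21), or 2.80-fold. The next kinases behaved otherwise. Mvk, mevalonate kinase, gave a difference of 0.01 (adjusted p = 0.88) and Pmvk, phosphomevalonate kinase, one of -0.02 (adjusted p = 0.605), and neither was called in any strain. Mvd, the decarboxylase that forms isopentenyl diphosphate, was called up by 0.56 (SE 0.06).

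The steps from isoprenoid to squalene, and the epoxidation of squalene that follows, were all called up. Idi1 (probe set 10482762), the isomerase that makes dimethylallyl diphosphate, had the largest rise of the module and ranked 119 from the top of all kept genes. It ran from 9.22 to 10.48 at T1 (median 9.77) and from 7.12 to 8.26 at T0 (median 7.69), without overlap. The difference was 2.18 (SE 0.06, adjusted p = 5.25e-24), or 4.54-fold, and a second probe set of Idi1 gave 2.13. Sqle, squalene epoxidase, a rate-limiting oxygen-using step, ran from 8.38 to 9.80 at T1 (median 9.11) and from 6.58 to 7.95 at T0 (median 7.16). Its times did not overlap either, and the difference was 1.95 (SE 0.08, adjusted p = 4.63e-20). Fdft1, squalene synthase, was called up by 0.92 (SE 0.07), with 1.05 from its second probe set, and was higher at T1 in 17 of the 17 pairs of arrays of 1 strain and number. Pairs here and below match labels and not known animals, and the share of kept genes with 17 of 17 was not counted. Fdps, which makes farnesyl diphosphate for sterols and for isoprenoid anchors alike, was called up by only 0.39 (SE 0.06), and its values overlapped between the times.

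The steps after squalene epoxidation split in direction. Cyp51, the lanosterol demethylase, ran from 8.70 to 9.68 at T1 (median 9.14) and from 6.94 to 7.76 at T0 (median 7.24). The times did not overlap, and the difference was 1.89 (SE 0.06, adjusted p = 1.62e-22), or 3.70-fold. Lss, the cyclase that forms lanosterol, ran from 6.19 to 8.20 at T1 (median 7.30) and from 5.41 to 6.62 at T0 (median 6.07). Its difference was 1.31 (SE 0.10, adjusted p = 5.2e-13), with overlap because 1 array, C57BL/6J T1 replicate 4, gave the lowest T1 value. Msmo1, the sterol methyl oxidase, ran from 9.53 to 10.92 at T1 (median 10.21) and from 8.58 to 9.48 at T0 (median 8.95). It did not overlap, and its difference was 1.21 (SE 0.06, adjusted p = 1.26e-17).

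Hsd17b7, a 3-ketosteroid reductase of the same demethylation complex, was called up by 1.08 (SE 0.08), Sc5d, the lathosterol desaturase, by 0.37 (SE 0.06) and Nsdhl, the decarboxylating dehydrogenase, by 0.20 (SE 0.07). All 3 overlapped between the times, and Nsdhl was called in 1 strain. The others went down. Ebp, the sterol isomerase, ran from 6.58 to 7.29 at T1 (median 6.86) and from 7.37 to 7.85 at T0 (median 7.61), without overlap, and changed by -0.80 (SE 0.05, adjusted p = 2.02e-14). Dhcr7, which completes cholesterol from its last precursor, changed by -0.31 (SE 0.06, adjusted p = 1.8e-05), and Tm7sf2, a sterol reductase that acts after Cyp51, by -0.30 (SE 0.05, adjusted p = 7.36e-06). These last 2 overlapped between the times and were called in 3 strains each.

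**Figure D2:**
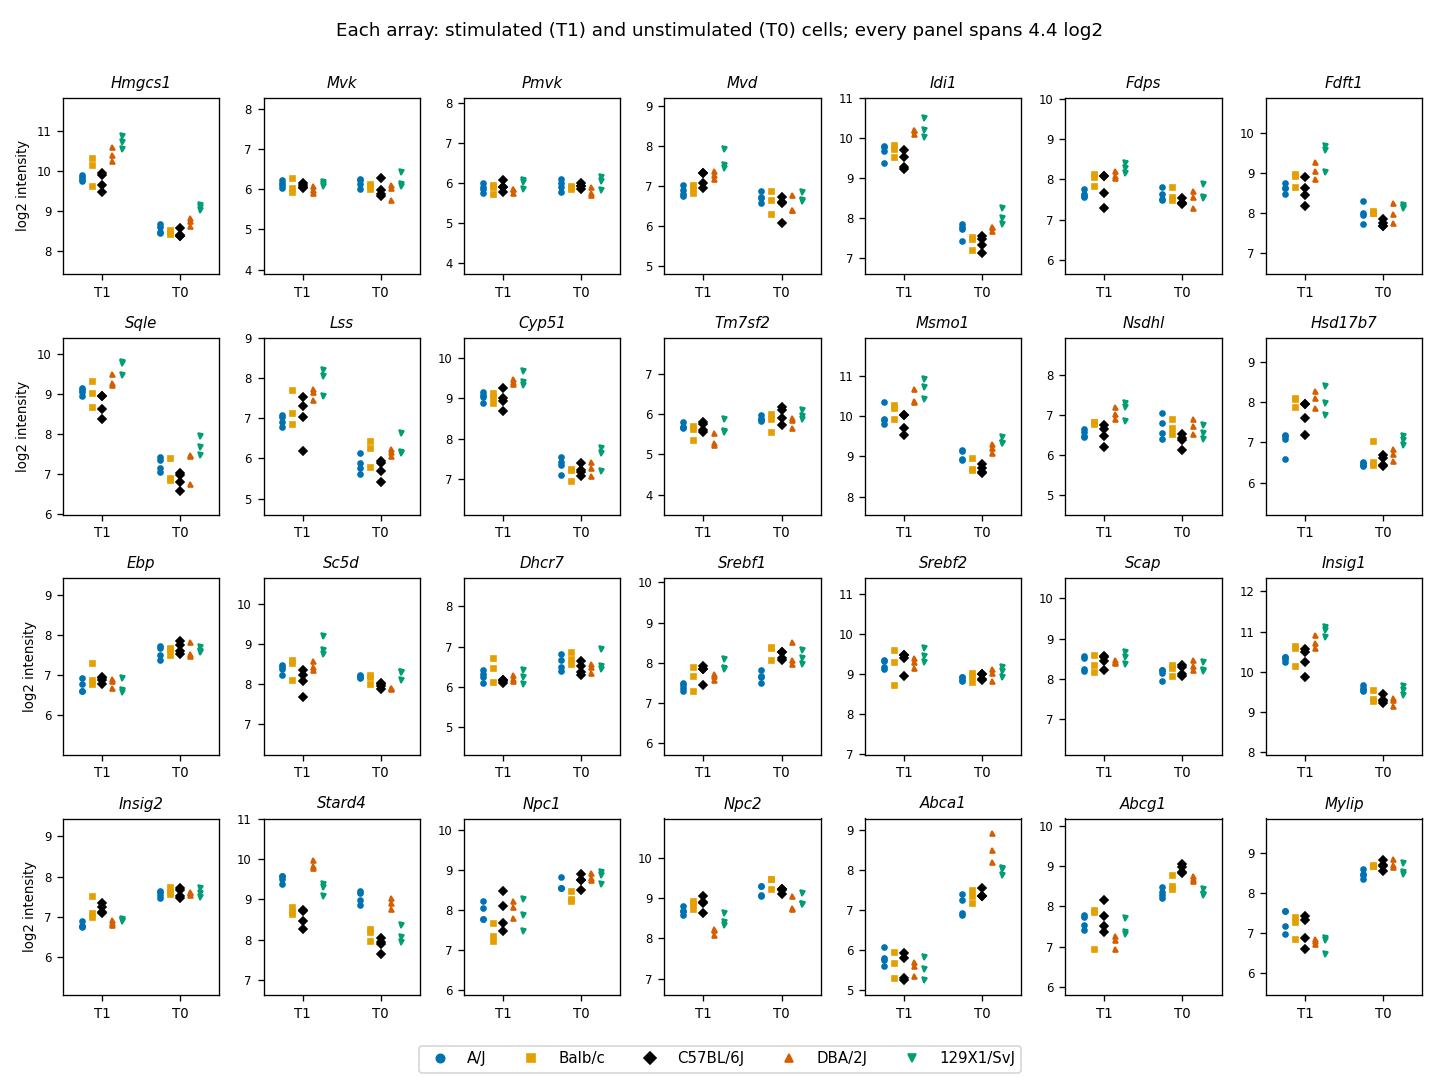
Log2 intensity of each of the 28 genes on every array, 1 panel per gene, with the 17 T1 arrays left of the 17 T0 arrays and strains by colour and symbol; every panel spans the same number of log2 units. Idi1, Sqle and Cyp51 separate the times without overlap, with T1 higher, and Abca1 and Mylip separate them with T1 lower.

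The sensing machinery moved in both directions. Insig1, the anchor that holds Scap in the endoplasmic reticulum and is itself a target of the Srebf2 factor, ran from 9.87 to 11.11 at T1 (median 10.56) and from 9.15 to 9.68 at T0 (median 9.42). It did not overlap and was called up by 1.15 (SE 0.06, adjusted p = 1e-17). Its relative Insig2, which is not driven by that factor, ran from 6.74 to 7.52 at T1 (median 6.92) and from 7.46 to 7.75 at T0 (median 7.60). With a small overlap between the times, Insig2 changed by -0.61 (SE 0.04, adjusted p = 7.84e-14), and both anchors were called in all 5 strains, in opposite directions. Srebf2 was called up by 0.35 (SE 0.06). Scap was called up by 0.19 (SE 0.05), though in no single strain. Srebf1, whose product drives mainly fatty acid genes and which is itself a liver X receptor target, changed by -0.41 (SE 0.06, adjusted p = 3.61e-07) and was lower at T1 in 17 of 17 pairs.

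Transport inside the cell was likewise split. Stard4, a soluble carrier of cholesterol between membranes, was called up by 0.76 (SE 0.06, adjusted p = 9.92e-14), and in all 5 strains. The lysosomal pair that releases cholesterol taken up with lipoprotein went down. Npc1, the membrane partner, ran from 7.22 to 8.47 at T1 (median 7.80) and from 8.22 to 8.94 at T0 (median 8.74), and changed by -0.82 (SE 0.08, adjusted p = 1.28e-10). Npc2, the soluble partner, changed by -0.51 (SE 0.05, adjusted p = 4.43e-11). Both overlapped between the times, with 3 of the 17 T1 arrays above the lowest T0 value for Npc1 and 6 for Npc2, and both were lower at T1 in 17 of 17 pairs.

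The largest falls were those of Abca1, Mylip and Abcg1. Abca1 (probe set 10512949), which exports cholesterol to lipid-poor apolipoprotein, ran from 5.25 to 6.08 at T1 (median 5.69) and from 6.87 to 8.91 at T0 (median 7.41). The times stood far apart, and the difference of -2.05 (SE 0.08, adjusted p = 1.92e-20), or 4.14-fold lower, ranked 75 from the bottom of all kept genes. Some T1 values lay under 5.327, the limit of the filter, close to the background of the arrays, so the size of this fall is not exact. Mylip ran from 6.47 to 7.56 at T1 (median 6.89) and from 8.34 to 8.84 at T0 (median 8.67). It did not overlap and changed by -1.61 (SE 0.07, adjusted p = 3.21e-19). Abcg1, which exports cholesterol to mature lipoprotein, ran from 6.94 to 8.16 at T1 (median 7.50) and from 8.22 to 9.04 at T0 (median 8.50), again without overlap, and changed by -1.08 (SE 0.08, adjusted p = 9.15e-14).

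The cell check showed T cells with other cells among them. Cd4 averaged 8.56 at T1 and 9.40 at T0, and Cd3e, a chain of the T cell receptor complex, 8.73 at T1 and 9.46 at T0. Counts of called markers are to be read against the 36.0% of kept genes called up and 46.3% called down. Of 11 B cell markers, 4 were called up and 7 down (median -1.60), and of 8 neutrophil markers 7 were called down (median -1.54). The mean level of the B cell list ran from 6.54 to 7.29 at T1 and from 7.16 to 8.98 at T0, and that of the neutrophil list from 4.49 to 5.79 at T1 and from 5.11 to 7.34 at T0. Of 12 macrophage and monocyte markers, cells in which Abca1 is known to be strong, 1 was called up and 5 down, with a list level of 5.65 to 6.78 at T1 and 5.76 to 7.13 at T0. All 11 B cell markers found on the arrays, 8 of 10 neutrophil markers and all 12 macrophage markers passed the filter on low values, and their part in the falls of Abca1, Abcg1, Mylip, Npc1 and Npc2 was not tested. In bulk RNA, fewer cells of a type and less RNA per cell cannot be told apart.

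The stimulation was then read strain by strain. In 129X1/SvJ 24 of the 28 genes were called, 15 up and 9 down, where 56.3% of kept genes were called, 21.6% up and 34.7% down. C57BL/6J had 23, 13 up and 10 down, where the shares of kept genes were 63.7%, 25.1% and 38.6%. DBA/2J had 22, 13 up and 9 down (60.0%, 23.8% and 36.2%). A/J and Balb/c had 19 each, 11 up and 8 down, with 56.6%, 20.3% and 36.3% of kept genes in A/J and 54.7%, 20.6% and 34.1% in Balb/c. Without Balb/c T1 replicate 2, A/J and Balb/c had 20 each and DBA/2J 23. Called up in all 5 strains were 10 genes (13.8% of kept genes), and called down in all 5 were 7 (25.6%). The median difference over the 17 enzymes increased in the order A/J (0.18), Balb/c (0.39), C57BL/6J (0.67), DBA/2J (0.75), 129X1/SvJ (0.92), whereas the median over all kept genes lay between -0.08 and -0.06 in each strain. The mean over the same enzymes gave another order and a narrower spread, with A/J at 0.51, C57BL/6J at 0.67, Balb/c at 0.72, 129X1/SvJ at 0.82 and DBA/2J at 0.84, so that A/J was lowest, and DBA/2J and 129X1/SvJ the upper pair, by both measures.

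A/J had the smallest response in 10 of the 12 enzymes called up, and in 12 of all 16 genes called up, against 33.3% of all kept genes called up. The largest response was in DBA/2J or 129X1/SvJ for 14 of the 16, against 56.4%, and for 11 without Balb/c T1 replicate 2. Among the 10 genes called down, A/J had the smallest fall in 5 (26.7% of kept genes called down) and DBA/2J or 129X1/SvJ the largest in 8 (51.7%). Leaving out each array in turn moved the count of enzymes with the smallest response in A/J between 7 and 11. These orders are descriptions, since most single responses were not shown to differ.

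The responses themselves differed between strains for 4 genes, by an F test on the interaction that called 6.92% of kept genes. Without Balb/c T1 replicate 2 the count was 6, with Abcg1 (adjusted p = 0.00959) and Mylip (adjusted p = 0.0391) added, and the count over all kept genes was 1185, against 790 on all arrays. Abca1 had the widest range, 1.68 (adjusted p = 0.00025). At T1 DBA/2J had 5.37 to 5.71, 129X1/SvJ 5.25 to 5.83, C57BL/6J 5.25 to 5.93, Balb/c 5.32 to 5.96 and A/J 5.61 to 6.08. At T0 DBA/2J had 8.21, 8.91 and 8.51, 129X1/SvJ 8.02, 7.89 and 8.04, C57BL/6J 7.37, 7.35, 7.55 and 7.35, Balb/c 7.19, 7.37 and 7.51, and A/J 6.93, 6.87, 7.41 and 7.25. DBA/2J and 129X1/SvJ thus stood apart at T0, with DBA/2J highest, while C57BL/6J, Balb/c and A/J overlapped one another. At T1 all strains overlapped (adjusted p = 0.617). The T1 values lay around the filter limit of 5.327, near background, so a strain difference there could be missed, the changes by strain are not exact, and the range of the response cannot be told apart from the T0 range of 1.43. DBA/2J changed by -2.98, 129X1/SvJ by -2.44, C57BL/6J by -1.83, Balb/c by -1.70 and A/J by -1.30.

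Insig1 differed in its response by 0.73 (adjusted p = 0.0199). Its T1 values in 129X1/SvJ were 11.04, 10.88 and 11.11, while DBA/2J had 10.73, 10.93 and 10.60, Balb/c 10.63, 10.14 and 10.59, C57BL/6J 10.56, 10.49, 10.24 and 9.87, and A/J 10.38, 10.25, 10.38 and 10.32. At T0 all strains lay between 9.15 and 9.68 and no strain difference was called (adjusted p = 0.24). DBA/2J rose by 1.48, 129X1/SvJ by 1.47, Balb/c by 1.08, C57BL/6J by 0.98 and A/J by 0.75, so A/J had the smallest rise. Its T0 mean was the highest of the strains, at 9.58, and its T1 mean of 10.33 was not below the 10.29 of C57BL/6J.

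Stard4 and Mvd were called close to the threshold. Stard4 differed in its response by 0.68 (adjusted p = 0.0397), with 129X1/SvJ rising by 1.14, DBA/2J by 0.97, C57BL/6J by 0.66, Balb/c by 0.57 and A/J by 0.46. Mvd differed by 0.77 (adjusted p = 0.0492), with 129X1/SvJ at 0.92, DBA/2J at 0.75, C57BL/6J at 0.67, Balb/c at 0.32 and A/J at 0.15, and it was called in the first 3 of these strains. Mvd had 7.92, 7.44 and 7.52 at T1 in 129X1/SvJ, above the 6.76 to 7.03 of A/J, while the T0 values were 6.86, 6.62 and 6.64 in 129X1/SvJ and 6.58 to 6.89 in A/J. Without 1 array at a time, Mvd lost the call in 23 of 34 fits (adjusted p up to 0.101) and Stard4 in 16 (up to 0.11), while Abca1 and Insig1 kept it in all 34.

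**Figure D3:**
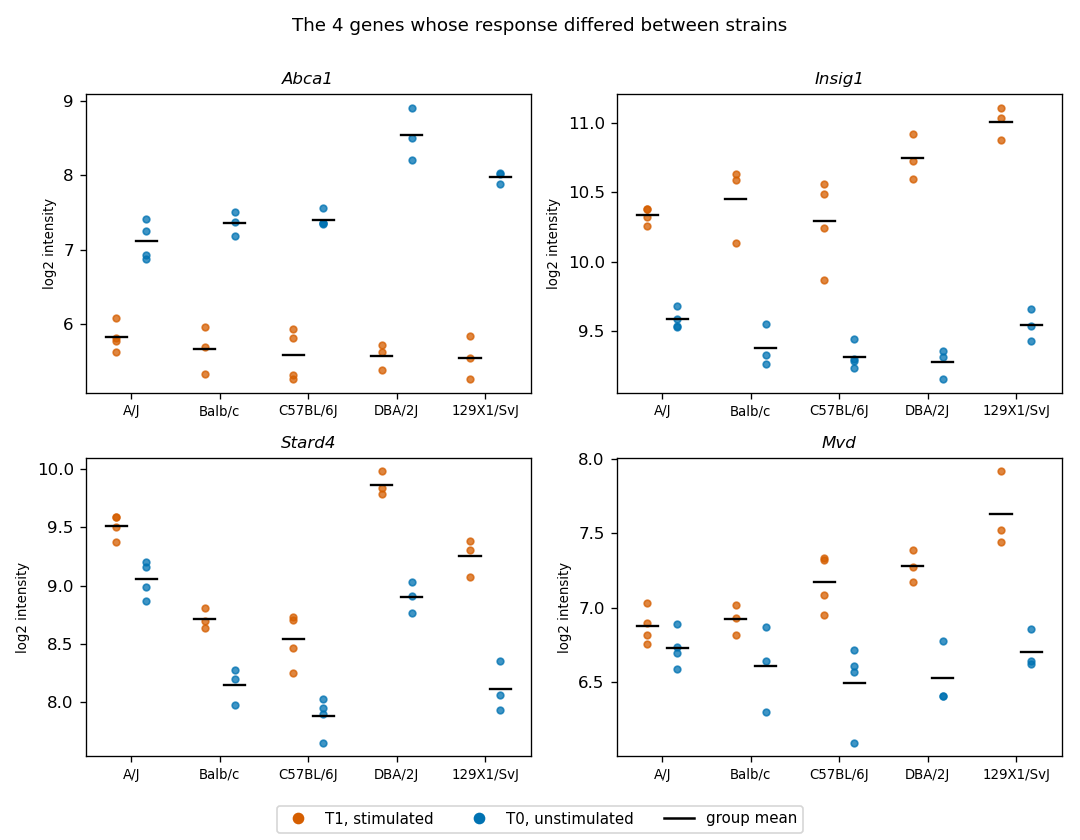
The 4 genes whose response differed between strains: log2 intensity of every array (points) and the group mean (bars) by strain, T1 left of T0 in each strain. Abca1 lies near the filter limit at T1, at 5.25 to 6.08, and is highest at T0 in DBA/2J, at 8.21 to 8.91, while Insig1 is highest at T1 in 129X1/SvJ, at 10.88 to 11.11.

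At T1 the strains differed in 18 of the 28 genes (19 without Balb/c T1 replicate 2), against 31.0% of kept genes, and 129X1/SvJ had the highest mean in 13 of the 18, against 25.8% of all genes called there. Stard4 had the widest range, 1.33 (adjusted p = 3.82e-09), where DBA/2J had 9.84, 9.98 and 9.78, A/J 9.59, 9.59, 9.50 and 9.37, 129X1/SvJ 9.31, 9.08 and 9.38, Balb/c 8.80, 8.64 and 8.70, and C57BL/6J 8.73, 8.71, 8.46 and 8.25. DBA/2J and A/J did not overlap with Balb/c and C57BL/6J. Hsd17b7 had a range of 1.06, with A/J lowest at 7.10, 7.19, 7.17 and 6.59 and the other strains at 7.20 to 8.39. The 7.20 came from C57BL/6J replicate 4 and lay next to the A/J values, and the 6.59 came from A/J replicate 5, far from its group. Hmgcs1 and Lss each had a range of 0.98. Hmgcs1 had 10.72, 10.53 and 10.87 in 129X1/SvJ and 10.38, 10.58 and 10.24 in DBA/2J, both above A/J at 9.73 to 9.88 and C57BL/6J at 9.46 to 9.94. For Lss, 129X1/SvJ averaged 7.93 ± 0.34 (SD, n = 3), DBA/2J 7.62 ± 0.14 (n = 3), Balb/c 7.24 ± 0.43 (n = 3), C57BL/6J 7.02 ± 0.59 (n = 4) and A/J 6.96 ± 0.14 (n = 4).

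Of the 12 enzymes among these 18 genes, 11 were highest in 129X1/SvJ, while 8 were lowest in C57BL/6J and 4 in A/J. The lowest place rests on 1 array: without C57BL/6J T1 replicate 4, whose mean over the 17 enzymes was 7.40 against 7.63 to 7.84 in its group, 4 were lowest in C57BL/6J and 7 in A/J. The 129X1/SvJ count ran from 9 to 12 over the fits without 1 array. Marker lists also differed by strain at T1. The mean level of the T cell list was 8.81 in 129X1/SvJ, 8.81 in DBA/2J, 9.22 in C57BL/6J, 9.22 in Balb/c and 9.38 in A/J, so it was lowest in the strains with the highest enzyme means. That of the B cell list was 7.16 in 129X1/SvJ, 6.95 in DBA/2J, 6.89 in C57BL/6J, 6.86 in Balb/c and 6.67 in A/J. The erythroid list was lowest in 129X1/SvJ (5.06) and high in both DBA/2J (7.83) and A/J (8.20). The part of these cells in the order of the enzymes was not tested.

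**Figure D4:**
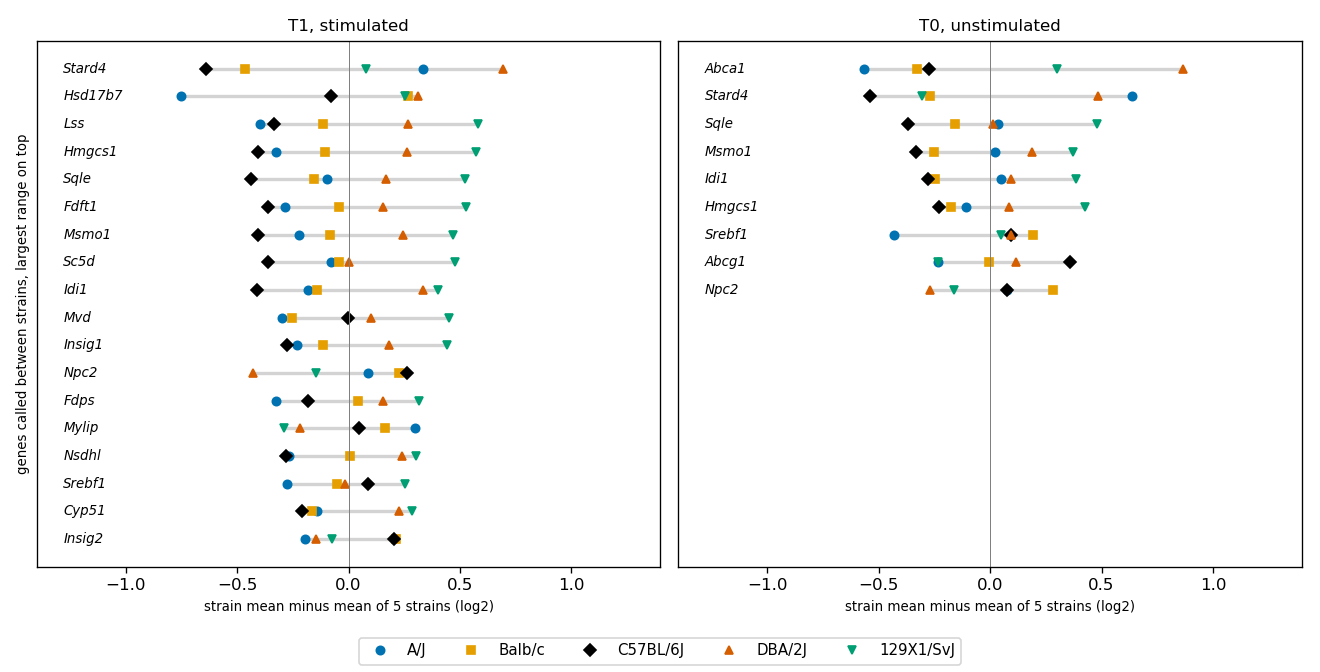
Strain means minus the mean of the 5 strains, in log2, for the 18 genes called between strains at T1 (left) and the 9 called at T0 (right), largest range on top. 129X1/SvJ lies rightmost in 13 of the 18 at T1, and Stard4 and Abca1 reach the widest ranges, 1.33 at T1 and 1.43 at T0.

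At T0 the strains differed in 9 genes, against 18.5% of kept genes. Abca1 had the widest range, 1.43 (adjusted p = 1.52e-06), from the values given above, with DBA/2J and 129X1/SvJ above the other 3 strains on every array. The B cell list was also highest at T0 in these strains, at 8.42 to 8.98 in 129X1/SvJ and 8.13 to 8.79 in DBA/2J, with 7.16 to 8.08 in the others, while the mean level of the dendritic cell list followed the order of Abca1, with 6.48 in DBA/2J, 6.24 in 129X1/SvJ, 5.99 in C57BL/6J, 5.93 in Balb/c and 5.70 in A/J. Their part in the Abca1 difference was not tested. The macrophage list overlapped, with 5.88 to 6.86 in DBA/2J, 6.13 to 7.13 in 129X1/SvJ and 5.76 to 7.13 in C57BL/6J.

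Stard4 came next at T0, with a range of 1.18 (adjusted p = 2.38e-09). A/J had 9.20, 9.16, 8.87 and 8.99, DBA/2J 9.03, 8.91 and 8.76, Balb/c 8.27, 8.20 and 7.97, 129X1/SvJ 8.35, 7.93 and 8.06, and C57BL/6J 7.90, 8.03, 7.94 and 7.65. A/J and DBA/2J thus stood above the rest without overlap at T0, as they did above Balb/c and C57BL/6J at T1, a strain pattern unlike that of the enzymes. Among the enzymes, Sqle (range 0.85), Msmo1 (0.71), Idi1 (0.67) and Hmgcs1 (0.66) were called, each with 129X1/SvJ highest and C57BL/6J lowest. Hmgcs1 had 9.14, 9.02 and 9.08 in 129X1/SvJ and at most 8.82 elsewhere, and Msmo1 averaged 9.39 ± 0.08 in 129X1/SvJ (SD, n = 3) and 8.68 ± 0.11 in C57BL/6J (SD, n = 4). Idi1 averaged 8.04 ± 0.21 in 129X1/SvJ and 7.37 ± 0.19 in C57BL/6J, and Sqle 7.70 ± 0.24 and 6.84 ± 0.20 in the same strains. Sqle lost its call without 129X1/SvJ T0 replicate 1 (adjusted p = 0.0615). Marker lists differed by strain at T0 as well. The erythroid list averaged 5.05 in 129X1/SvJ and 6.45 to 7.94 in the other strains, with C57BL/6J at 6.45. The B cell list was highest in 129X1/SvJ (8.64) and lowest in A/J (7.46), with C57BL/6J at 7.69. The part of these cells in the order of the enzymes at T0 was not tested.

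Srebf1 had a range of 0.62 at T0, with A/J lowest at 7.50 to 7.81 and the other strains at 7.96 to 8.52. Abcg1 (range 0.59, adjusted p = 0.0335) was highest in C57BL/6J at 8.84 to 9.04, and lost its call in 9 of the 34 fits without 1 array (adjusted p up to 0.0998). Npc2 had a range of 0.55. Abcg1, although a fellow exporter, did not share the strain order of Abca1: 129X1/SvJ was among the lowest for it, at 8.28 to 8.43.

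**Figure D5:**
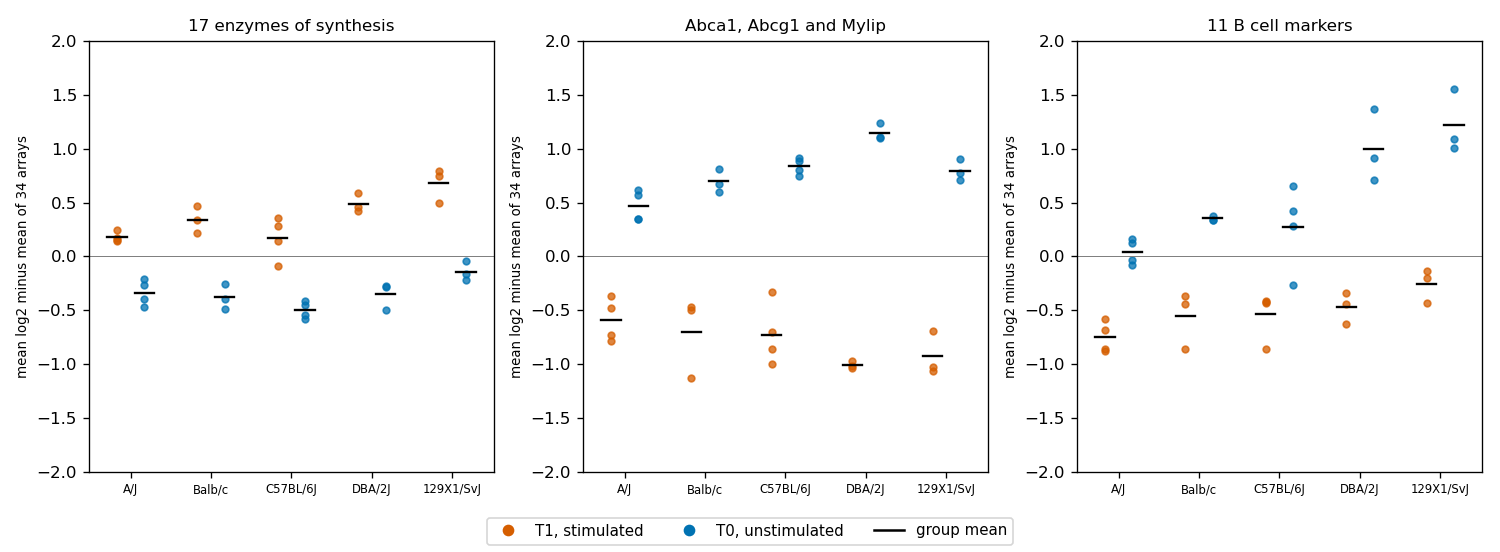
Mean log2 value over a list minus its mean over the 34 arrays, for the 17 enzymes, for Abca1, Abcg1 and Mylip, and for 11 B cell markers, each array a point and each group mean a bar, T1 left of T0. The enzyme mean is highest in 129X1/SvJ at T1, at 0.68, and the B cell mean is highest in 129X1/SvJ at T0, at 1.22.

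Neighbouring pathways, listed by function with earlier results of these data known, were mixed in direction. Their counts are to be read against the 36.0% of kept genes called up and 46.3% called down. Of 12 genes that use isoprenoid diphosphates, 2 were called up and 8 down (median -0.16). Nus1, a subunit of the dolichol-forming transferase, was called up by 1.03 and Rabggtb, of the enzyme that attaches geranylgeranyl to Rab proteins, by 0.77, while Ggps1, which makes geranylgeranyl diphosphate, changed by -1.45 and Dhdds, the partner of Nus1, by -0.94. Of 13 fatty acid synthesis genes, 5 were called up and 7 down (median -0.14), with Fasn, the fatty acid synthase, at 1.25 and the elongase Elovl5 at 0.76, and the desaturases Scd2 at -1.53 and Fads1 at -0.90.

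Of 7 further genes of Srebf2 factor processing and sterol-regulated degradation, 1 was called up and 4 down (median -0.54). Erlin1, an endoplasmic reticulum scaffold, gave 0.25, against -0.77 for Sec23a, a coat protein of vesicles that leave the endoplasmic reticulum, and -0.76 for Mbtps1, the protease that makes the first cut in the factor. Of 21 other genes of sterol transport, esterification and oxysterols, 5 were called up and 13 down (median -0.29). Tmem97, a sterol-regulated receptor protein that binds Npc1, was called up by 2.08 and Gramd1b, which carries cholesterol from the plasma membrane, by 1.20. Lipa, the lysosomal acid lipase that frees cholesterol from lipoprotein esters, changed by -2.09 and Stard5, another soluble sterol carrier, by -1.26.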

How the data were processed

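RNA of CD4+ splenocytes was hybridised to Affymetrix arrays, 1 per sample. The deposited values are log2 intensities that the authors made with RMA, per the submitters' processing notes; the sources used here give neither its version nor the probe set definitions. Groups (strain and time) came from the sample labels.

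Of 35556 probe sets, 21789 had 1 symbol in GEO's platform annotation, 1621 several and 12146 none. Symbols were updated through gene identifiers of RefSeq assembly GRCm38.p6 (21698 found). Each of 19938 genes took its brightest probe set, and 11413 genes were kept whose highest group mean reached the median of all values (5.327). limma 3.58.1 in R 4.3.3 fitted 10 group means to 34 arrays, with contrasts per strain, their mean, and moderated F tests over strains at T1, at T0 and on the response. Benjamini-Hochberg adjustment ran over the genes kept, with calls under 0.05. The number of arrays limits the precision. P values measure the spread between these samples, which may in part be technical.

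The module's members and the gene lists were chosen with earlier results of these data known. Values by array or strain are given for the 6 largest called rises and falls, the 6 largest strain ranges called at T0, 4 at T1 and all called in the response, and for each list the 2 largest called rises and falls. Insig1 is given by its lowest, median and highest values beside its relative Insig2, outside that rule, and was so chosen after its values were seen. Promoter windows came from RefSeq, build GRCm38.p6. On simulated data with the same groups of arrays, the mean stimulation was called for 68% of 50 genes changed by 0.25 log2. It was called for all those changed by 0.5 or more. The response was called for 26% of genes changed by 0.5 in A/J only, 84% at 1 and 98% at 1.5. The simulation left 11013 of 11413 genes unchanged and drew the noise of each gene separately. In the data themselves, 82.3% of kept genes were called in the mean stimulation. The simulated rates are therefore not those of the present data, nor of strains with 3 arrays. Alternatives were no filter, a stricter filter, an intensity trend with robust moderation, repeated quantile normalization, the mean of all probe sets, a replicate block, the replicate number as a term, subsets of replicate numbers, and leaving out each array.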

Additional observations from a re-analysis of the deposited data

Results flagged for a closer look

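The responses of 4 genes differed between strains by the F test on the interaction of strain and time. The range over strains was 1.68 log2 for Abca1, 0.77 for Mvd, 0.73 for Insig1 and 0.68 for Stard4, with the strain values given in the report.

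In groups of 4 arrays, 1 array lay far from the other 3 in 6 of the 112 combinations of gene and group examined, and chance alone marks about 1 in 20. At T1, C57BL/6J replicate 4 was low for Srebf1 (7.44, against 7.84 to 7.91) and for Srebf2 (8.95, against 9.40 to 9.47), and A/J replicate 5 was low for Hsd17b7 (6.59, against 7.10 to 7.19). At T0, C57BL/6J replicate 2 was high for Hmgcs1 (8.57, against 8.37 to 8.39), C57BL/6J replicate 3 was high for Abca1 (7.55, against 7.35 to 7.37) and A/J replicate 4 was high for Npc1 (8.81, against 8.55 to 8.56).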

How the results depend on the processing

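None of the 26 called directions of the mean stimulation reversed under any alternative. The results on strain differences are ranges, which have no sign to reverse. Over all 59 member results, 599 of 646 recomputed values kept their side of the threshold. Of the fits without 1 array, only the lowest and highest value of each result entered that count. The count of members called in the mean stimulation was 26 in every fit without 1 array. The same fits gave 17 to 20 in A/J, 18 to 20 in Balb/c, 20 to 25 in C57BL/6J, 22 to 23 in DBA/2J, 22 to 24 in 129X1/SvJ, 7 to 10 for strains at T0, 17 to 19 at T1 and 2 to 6 for the response. The interaction count of 4 is the least stable: it was 2 with no filter, 7 with the replicate block, 0 within numbers 1 and 2 and 1 within numbers 3 to 5. The block (correlation 0.195) added Hsd17b7, Mylip and Sc5d (adjusted p = 0.0237, 0.0338 and 0.0469), and over all genes it called 1386 against 790. Same-numbered T1 and T0 arrays correlated in their deviations from -0.08 to 0.47, over 0.1 in 14 of 17 pairs, and 12 of 17 correlated best with their own number. This is a hint of pairing from the data, but not every pair passed 0.1 and the labels do not tie a number to an animal, so the numbers were not taken as pairs and the block stayed an alternative. Between strains at T1, 5 members were called within numbers 1 and 2; at T0, 3 were called within numbers 1 and 2 and 2 within numbers 3 to 5. These subsets hold fewer arrays. Over all kept genes they called 111 and 175 for the response (790 on all arrays), 776 and 1778 between strains at T1 (3533), and 976 and 927 at T0 (2107), and within numbers 3 to 5 they called 2897 in Balb/c (6238) and 4143 in 129X1/SvJ (6427). Nsdhl lost its mean call within numbers 1 and 2 (0.10, adjusted p = 0.269) and Tm7sf2 within numbers 3 to 5 (-0.16, adjusted p = 0.0834). Srebf1 at T1 lost its call in 4 fits without 1 array and Mylip in 1 (adjusted p up to 0.0881 and 0.051). Repeating the quantile normalization moved the median of all genes to -0.02.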

Other observations

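Other cell type lists were also compared between T1 and T0 over all arrays. Their counts are to be read against the 36.0% of kept genes called up and 46.3% called down. Of 10 T cell markers, 3 were called up and 5 down, with a mean level of the list of 8.65 to 9.51 at T1 and 9.11 to 9.66 at T0. Of 6 markers of CD8 T and NK cells, 1 was called up and 4 down, with a list level of 5.50 to 6.48 at T1 and 5.76 to 7.03 at T0. Of 5 dendritic cell markers, 1 was called up and 3 down, with a list level of 5.12 to 5.81 at T1 and 5.47 to 6.59 at T0. The erythroid list did not go down: of its 8 markers, 0 were called up and 0 down (median 0.22). Its level was 5.01 to 8.50 at T1 and 4.96 to 8.58 at T0. The A/J strain had the highest neutrophil list at T0, at 7.03 to 7.34 on its 4 arrays, where C57BL/6J had 5.11 to 5.62.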
